A study of Bos taurus with 4 samples.

Results

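The genes described here are those of cellular antioxidant defence: the enzymes that remove superoxide and peroxides, the thioredoxin, glutaredoxin and glutathione systems that keep these enzymes reduced, and the regulators and targets of the transcription factor NRF2. They were followed in semitendinosus, a hindlimb muscle, of 15-month-old bulls of the beef breed Hereford (HER) and the dairy breed Holstein-Friesian (HF). The list held 40 gene symbols, and a gene was a member where a reference accession of the array design led to its symbol. Probes were found for 37 of the 40 genes, among 11054 genes named this way on the array. No probe was matched to SRXN1 or GSTP1 by symbol, and GSTM1 was matched through an older symbol alone and was left out of the counts. The 37 genes had 85 probes, of which 83 could be tested. All 37 kept at least 1 testable probe.

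The animals were 4 HER bulls and 4 HF bulls with no treatment, and 1 bull of each breed was hybridised to each of 4 dual-colour arrays on 1 slide. HF was the reference breed of the study. RNA came from bulk muscle that, per the study's methods, had been trimmed of fat and connective tissue, so that fewer cells of a type and less RNA per cell cannot be told apart. Values are log2(Cy5/Cy3), the signal of the sample labelled with the red dye over that of the sample labelled with the green dye on the same array. The titles of the samples put HER in Cy3 and HF in Cy5, but a remark beside them says that the dyes were swapped, and the breed directions in the study's own tables run against the titles. The breed with the higher level is therefore not named here, and higher or lower refers to the Cy5 sample. Every array had the same dye orientation, so that a dye effect on a probe and a difference between the breeds cannot be told apart.

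Superoxide, formed mainly by the respiratory chain and by oxidases, is turned into hydrogen peroxide by superoxide dismutases. Catalase, glutathione peroxidases and peroxiredoxins then remove the peroxide, and glutathione and thioredoxin supply the electrons, which come in the end from NADPH. NRF2, held down by KEAP1, switches on many of these genes under oxidative stress. Contracting muscle is a well known source of reactive oxygen, and several of the proteins, such as GPX1, GPX3, GPX4 and the thioredoxin reductases, contain selenocysteine.

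The arrays correlated with each other at r between 0.332 and 0.618 over all probes tested. The median signal was 129 to 160.5 in Cy5 and 77 to 138 in Cy3 over a local background of 37 to 41, and no spot was saturated. Muscle fibre markers identified the tissue: 14 of 18 listed fibre genes were measured and none passed the test, with ACTA1, CKM, MB and DES well above background in all samples. Their mean log2 ratios ran from -0.95 to 0.71 with a median of 0.18, 11 above 0 and 3 below. The change was at least 1.3-fold for 6 of the 14, and the smallest adjusted p was 0.0532 by limma. The erythroid markers ALAS2, CA1 and KLF1 were not well above background. The number of arrays limits the precision.

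Of the 37 antioxidant genes, 4 differed between the samples of the arrays at the adjusted p threshold of 0.05, 2 in each direction. GPX3, the glutathione peroxidase secreted into extracellular fluid, and HMOX2, the constitutive haem oxygenase, were higher in Cy5, by 2.13-fold and 1.99-fold. GPX4, which reduces lipid hydroperoxides within membranes, and GSTO1, an omega-class glutathione transferase, were lower, by 1.96-fold and 1.86-fold. The other 33 genes did not pass. Each gene was represented by its brightest tested probe, and p-values came from limma with Benjamini-Hochberg adjustment over 32606 probes. The 4 genes were 10.8% of the 37, beside 4.46% of all 9425 named genes that passed by the same rule, 2.92% higher and 1.54% lower. No test of this share was made. The 37 genes had a median log2 intensity of 11.38 beside 8.93 over all named genes, and the shares were not matched for brightness. Over probes, 8 of the 83 were called, 5 higher and 3 lower, beside 3.32% of all probes, 1.97% higher and 1.35% lower.

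**Figure D1:**
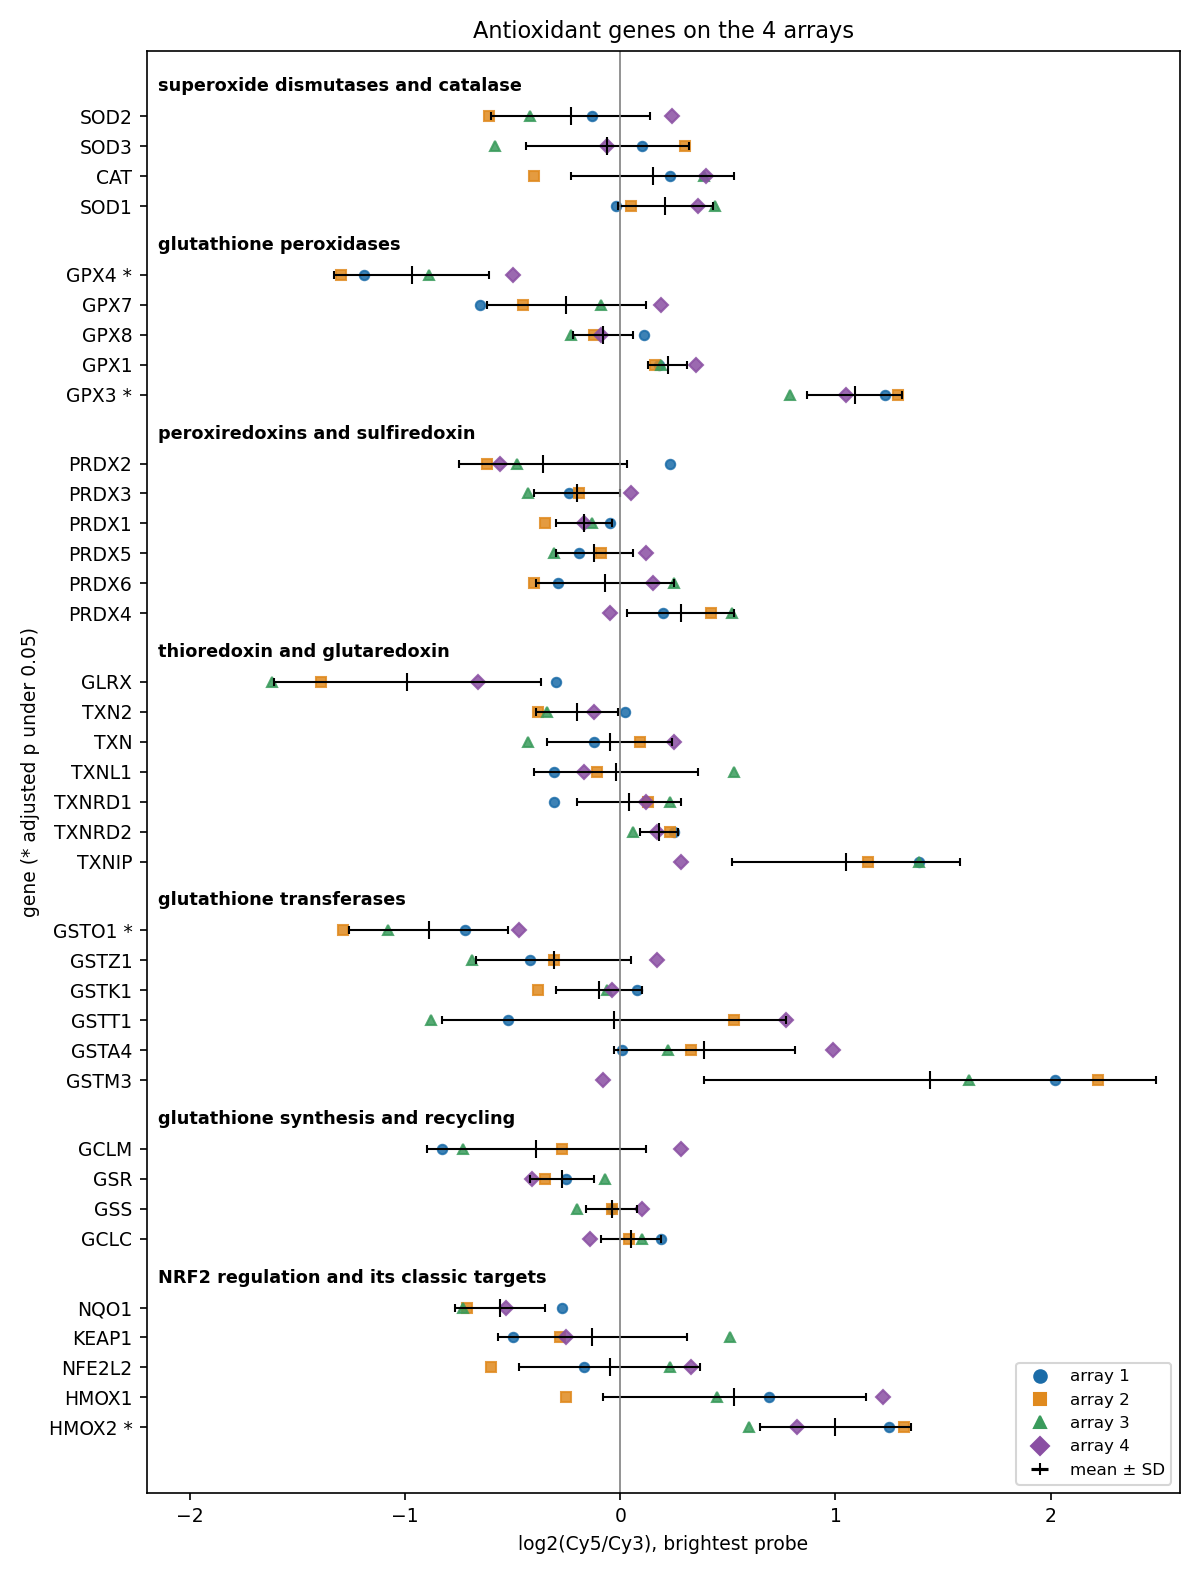
Log2(Cy5/Cy3) of the brightest probe of each of the 37 genes on the 4 arrays (points), with the mean (vertical tick) and SD (bar), grouped by role, and a star at an adjusted p under 0.05. GPX3 and HMOX2 lie above 0 on 4 of 4 arrays and GPX4 and GSTO1 below 0 on 4 of 4, and all 4 kept that direction under median centring, where GPX4 and GSTO1 were no longer called, 20 of the others turned to above 0 and 1 to below 0, whereas GSTM3 and GSTT1 have the widest spread between arrays.

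The list as a whole had a median close to that of all genes. The median log2 ratio over the 37 was -0.06, beside 0.02 over all named genes, with medians on the single arrays of -0.05, -0.19, -0.07 and 0.12. Means were above 0 for 13 genes and below 0 for 24, beside 5119 above and 4306 below among the 9425 named genes. The side depended on how the dyes were balanced: with median centring in place of the intensity-dependent loess curve, the median of all probes moved to 0.24, and 32 of the 37 genes were above 0, or 27 above that median. On 4 of 4 arrays 6 genes were higher and 6 were lower, together 32.4% beside 34.2% of all named genes. At an unadjusted p under 0.05 there were 10 genes, beside 28.3% of all named genes. The study had asked for a p no higher than 0.05 and at least a 1.3-fold change. With the unadjusted p of limma and the same fold limit, 4 genes were higher and 4 lower, or 21.6%. The shares of all named genes in these directions were 10.6% and 7.18%. The study's own test was not used for these counts.

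**Figure D2:**
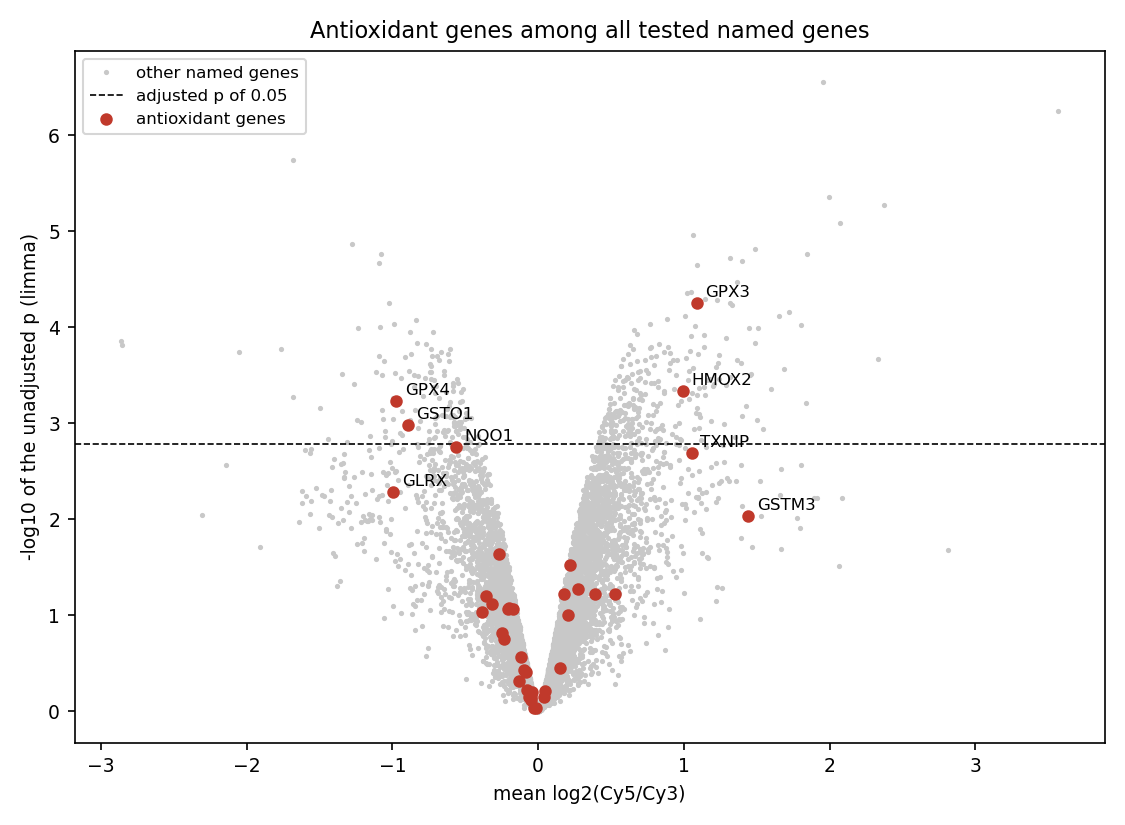
Mean log2(Cy5/Cy3) (horizontal) against the -log10 of the unadjusted p of limma (vertical) for all 9425 named genes at their brightest probe, with the 37 antioxidant genes in red and those with an unadjusted p under 0.01 named. GPX3, HMOX2, GPX4 and GSTO1 lie above the dashed line that marks an adjusted p of 0.05, with NQO1 at 0.0507 and TXNIP at 0.0528 just under it.

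The first step of the defence, superoxide dismutation, showed no called gene. SOD1, the cytosolic copper-zinc enzyme, had log2 ratios of -0.02, 0.05, 0.44 and 0.36 on arrays 1 to 4, with a mean of 0.21 ± 0.22 (SD, n = 4; adjusted p = 0.294 by limma). Its 4 probes did not agree in sign, with means from -0.05 to 0.35, the highest at an adjusted p of 0.0974 by limma. SOD2, the mitochondrial manganese enzyme, gave -0.13, -0.61, -0.42 and 0.24, a mean of -0.23 ± 0.37 (adjusted p = 0.403 by limma). CAT, the peroxisomal catalase, gave 0.23, -0.40, 0.39 and 0.40, a mean of 0.15 ± 0.38 (adjusted p = 0.59 by limma), and array 2 lay below 0 on all 4 of its probes. SOD3, the extracellular dismutase, was at -0.06 ± 0.38, with array 3 the lowest at -0.58. For each of these 4 genes the SD between arrays was larger than the size of the mean.

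Among the glutathione peroxidases GPX3 and GPX4 were called, and they ran in opposite directions. The normalized log2 intensity of GPX3 was 9.40, 9.18, 9.38 and 9.65 in the Cy5 samples and 8.17, 7.89, 8.59 and 8.60 in the Cy3 samples. All 4 Cy5 samples lay above all 4 Cy3 samples. The log2 ratios were 1.23, 1.29, 0.79 and 1.05, a mean of 1.09 ± 0.22 (SD, n = 4) or a 2.13-fold higher level (adjusted p = 0.0214 by limma), the smallest adjusted p of the 37 genes. The 3 other GPX3 probes had means of 1.19, 0.93 and 1.08 with adjusted p from 0.0241 to 0.0282 by limma, so that every probe of the gene was called.

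GPX4 was the mirror case among the peroxidases. Its normalized log2 intensity was 11.18, 10.92, 11.02 and 11.41 in the Cy5 samples and 12.37, 12.22, 11.91 and 11.91 in the Cy3 samples, and the 2 sets did not overlap. Log2 ratios of -1.19, -1.30, -0.89 and -0.50 gave a mean of -0.97 ± 0.36 (SD, n = 4), a 1.96-fold lower level (adjusted p = 0.038 by limma). The second probe gave -1.04 (adjusted p = 0.0344 by limma). The difference was smallest on array 4 for both probes. Under median centring GPX4 was at -0.30 (adjusted p = 0.102 by limma), or -0.54 from the median of all probes, and was no longer called.

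GPX1, the abundant cytosolic enzyme, had log2 ratios of 0.18, 0.16, 0.19 and 0.35, a mean of 0.22 ± 0.09 that was above 0 on 4 of 4 arrays but did not pass (adjusted p = 0.154 by limma). Its second probe was at 0.28. GPX7 and GPX8, peroxidases of the endoplasmic reticulum, were at -0.25 ± 0.37 and -0.08 ± 0.14 and did not pass. Of the 5 peroxidases measured, 1 was thus higher, 1 lower and 3 not called.

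**Figure D3:**
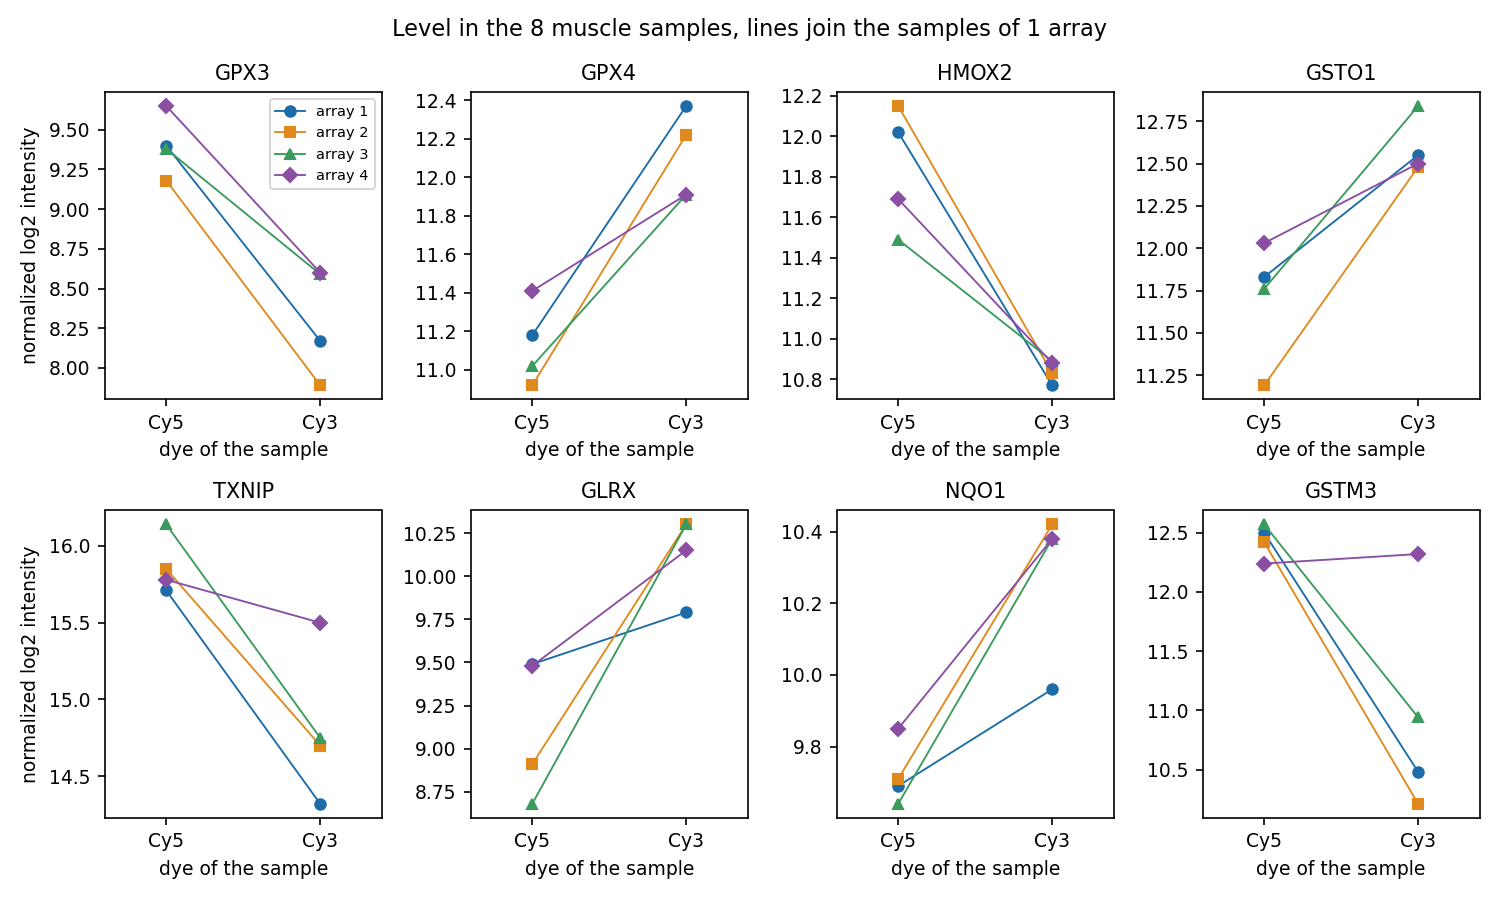
Normalized log2 intensity of the brightest probe in the 4 Cy5 and the 4 Cy3 samples for the 8 genes with the smallest p, with lines that join the 2 samples of an array; each panel has its own vertical scale, which does not start at 0. The Cy5 and Cy3 values do not overlap for 7 of the genes, whereas for GSTM3 the Cy3 sample of array 4, at 12.32, lies among the Cy5 samples.

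Normalized intensities of the Cy5 and Cy3 samples did not overlap for 8 of the 37 genes, or 21.6%, beside 15.9% of all named genes. GPX3, HMOX2, TXNIP and GSTA4 were the 4 with all Cy5 values at or above the Cy3 values, beside 9.41% of all named genes. GPX4, GSTO1, GLRX and NQO1 were the 4 with all Cy5 values below, beside 6.47%.

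The peroxiredoxins, thiol peroxidases that are recycled by thioredoxin, stayed close to 0. None of the 6 measured genes passed, 5 had means below 0, and the median was -0.15. PRDX4, the peroxiredoxin of the endoplasmic reticulum, was the exception in sign, with log2 ratios of 0.20, 0.42, 0.52 and -0.05 and a mean of 0.28 ± 0.25 (adjusted p = 0.212 by limma). PRDX1, a cytosolic form, was at -0.05, -0.35, -0.13 and -0.17, a mean of -0.17 ± 0.13 (adjusted p = 0.27 by limma).

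PRDX2, the form that red blood cells contain in large amounts, behaved differently on array 1 than on the others, with log2 ratios of 0.23, -0.62, -0.48 and -0.56 and a mean of -0.36 ± 0.39 (adjusted p = 0.229 by limma). Its second probe had the same split, with 0.40 on array 1 and -0.41, -0.37 and -0.35 on the others. None of the 7 measured erythroid markers was called, and their summed normalized intensity was 27699 to 40593 in Cy5 and 21418 to 37737 in Cy3. PRDX3, PRDX5 and PRDX6 had means between -0.20 and -0.07, and the 5 probes of PRDX6 spanned only -0.12 to -0.01.

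In the thioredoxin system the largest mean was that of the inhibitor. TXNIP, which binds thioredoxin and blocks it and also restrains glucose uptake, had log2 ratios of 1.39, 1.15, 1.39 and 0.28. The Cy5 samples had normalized log2 intensities of 15.71, 15.85, 16.14 and 15.78 and the Cy3 samples 14.32, 14.70, 14.75 and 15.50, without overlap. The mean was 1.05 ± 0.53 (SD, n = 4), a 2.07-fold difference that did not pass (adjusted p = 0.0528 by limma). The 3 other TXNIP probes had means from 0.74 to 0.88 with adjusted p from 0.0718 to 0.102 by limma, and array 4 was the lowest on each of them, between -0.05 and 0.09.

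TXN and TXN2, the cytosolic and the mitochondrial thioredoxin, were at -0.05 ± 0.29 and -0.20 ± 0.19, and neither passed. TXNRD1 and TXNRD2, the reductases that recharge them, were at 0.04 ± 0.24 and 0.18 ± 0.09. TXNRD2 was above 0 on 4 of 4 arrays, with 0.25, 0.23, 0.06 and 0.17 (adjusted p = 0.224 by limma). TXNL1, a thioredoxin-like protein bound to the proteasome, was at -0.02 ± 0.38, and its 2 probes differed in sign.

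GLRX, the glutaredoxin that frees proteins of bound glutathione, was lower on 4 of 4 arrays, but by very unequal amounts. The log2 ratios were -0.30, -1.39, -1.62 and -0.66, a mean of -0.99 ± 0.62 or a 1.99-fold difference that did not pass (adjusted p = 0.0709 by limma). Cy5 samples lay at 9.49, 8.91, 8.68 and 9.48 and Cy3 samples at 9.79, 10.30, 10.30 and 10.15 on the normalized log2 intensity scale. A second probe gave -1.13, and the remaining, dim probe, well above background in Cy3 on 3 arrays only, gave -0.16. GLRX was the 1 gene of the 25 with over 1 tested probe whose probes spanned more than 0.5 on the log2 scale. None of the 7 thioredoxin and glutaredoxin genes was called.

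Glutathione transferases join glutathione to lipid peroxidation products and foreign compounds. GSTO1, whose omega class also reduces dehydroascorbate, was the called member, with 1 probe on the array. Its normalized log2 intensity was 11.83, 11.19, 11.76 and 12.03 in the Cy5 samples and 12.55, 12.48, 12.84 and 12.50 in the Cy3 samples, with no overlap. Log2 ratios of -0.72, -1.29, -1.08 and -0.47 gave a mean of -0.89 ± 0.37 (SD, n = 4) or a 1.86-fold lower level (adjusted p = 0.0432 by limma). Under median centring GSTO1 was at -0.19 (adjusted p = 0.322 by limma), or -0.43 from the median of all probes, and was no longer called.

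GSTM3, a mu-class transferase, had the largest mean of the 37 genes and also the largest spread. The log2 ratios were 2.02, 2.22, 1.62 and -0.08, a mean of 1.44 ± 1.05 or a 2.72-fold difference that did not pass (adjusted p = 0.0892 by limma). The 4 Cy5 samples lay between 12.24 and 12.57, and the Cy3 samples lay at 10.48, 10.21, 10.94 and 12.32, so that 1 of the 4 Cy3 bulls was level with the Cy5 bulls and the other 3 were lower. The second probe showed the same pattern, with 1.81, 2.17, 1.38 and 0.11 (mean 1.37, adjusted p = 0.0747 by limma). Without array 4 the mean was 1.95. Mu-class transferases are closely related in sequence, and which of them the probes can tell apart was not examined, as no probe sequence was used here.

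GSTT1, a theta-class transferase, was the other gene with a wide spread, and here the arrays split evenly. Its log2 ratios were -0.52, 0.53, -0.88 and 0.77, a mean of -0.03 ± 0.80 (adjusted p = 0.967 by limma), and all 4 probes were positive on arrays 2 and 4 and negative on arrays 1 and 3. The SD between arrays was at the 97th percentile of all named genes for GSTT1 and at the 99th for GSTM3. The median SD over the 37 genes was 0.35, beside 0.23 over all named genes. The 37 genes were brighter as a set, with a median log2 intensity of 11.38 beside 8.93, and the SDs were not matched for brightness.

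GSTA4, the alpha-class enzyme that acts on hydroxynonenal, had log2 ratios of 0.01, 0.33, 0.22 and 0.99, a mean of 0.39 ± 0.42 (adjusted p = 0.224 by limma), while its second probe was at 0.03. GSTZ1, which also serves in tyrosine breakdown, was at -0.31 ± 0.36. GSTK1, the mitochondrial and peroxisomal kappa form, was at -0.10 ± 0.20, with probes of both signs.

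Glutathione itself is made by glutamate-cysteine ligase, whose catalytic and modifier subunits are GCLC and GCLM, and by GSS, the synthetase, and GSR returns the oxidised form to the reduced one. None of these 4 genes passed. GSR came closest, with log2 ratios of -0.25, -0.35, -0.07 and -0.41 and a mean of -0.27 ± 0.15 (adjusted p = 0.134 by limma), but its second probe was at -0.06.

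GCLM gave -0.83, -0.27, -0.73 and 0.28, a mean of -0.39 ± 0.51 (adjusted p = 0.283 by limma). GCLC was not well above background in Cy3 on any array, and its log2 ratios of 0.19, 0.04, 0.10 and -0.14 with a mean of 0.05 ± 0.14 (adjusted p = 0.787 by limma) rest on a dim signal. GSS was at -0.04 ± 0.12. The median over the 4 genes was -0.16.

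HMOX2, the constitutive haem oxygenase, was placed in the list of NRF2 regulators and targets beside its inducible relative HMOX1. HMOX2 was called and HMOX1 was not, though the difference between the pair was not tested. NFE2L2, KEAP1 and NQO1 were not called either. HMOX2, which degrades haem in most tissues without induction, had normalized log2 intensities of 12.02, 12.15, 11.49 and 11.69 in the Cy5 samples and 10.77, 10.83, 10.89 and 10.88 in the Cy3 samples. The Cy3 samples lay close together, and every Cy5 sample lay above them. Log2 ratios of 1.25, 1.32, 0.60 and 0.82 gave a mean of 1.00 ± 0.35 (SD, n = 4), a 1.99-fold higher level (adjusted p = 0.0353 by limma). Its second, dimmer probe was at 0.58 (adjusted p = 0.0579 by limma), higher on 4 of 4 arrays.

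HMOX1, the stress-induced haem oxygenase and a classic NRF2 target, had log2 ratios of 0.69, -0.25, 0.45 and 1.22, a mean of 0.53 ± 0.61 (adjusted p = 0.226 by limma). NQO1, the quinone reductase that is often read as a gauge of NRF2 activity, was lower on 4 of 4 arrays, with -0.27, -0.71, -0.73 and -0.53. Its mean of -0.56 ± 0.21 lay just above the threshold (adjusted p = 0.0507 by limma), its second probe was at -0.60 with the same adjusted p, and under median centring it was at 0.03, or -0.21 from the median of all probes. Cy5 samples of NQO1 lay between 9.64 and 9.85 and Cy3 samples between 9.96 and 10.42 on the normalized log2 intensity scale, without overlap.

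NFE2L2, which encodes NRF2, had a mean of -0.05 ± 0.42, and its 4 probes lay between -0.11 and 0.00. KEAP1, the adaptor that marks NRF2 for degradation, had a mean of -0.13 ± 0.44. On its brightest probe array 3 stood at 0.51 against -0.50, -0.28 and -0.25 on arrays 1, 2 and 4, and 2 other probes of KEAP1 were also above 0 on array 3 alone. The levels of the regulator and its inhibitor thus did not pass the test in either direction.

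Arrays took unequal parts in these values. Array 4 had the highest log2 ratio for 16 of the 37 genes and the lowest for 5, and array 3 the lowest for 13. GPX4, GSTO1, TXNIP and GSTM3 were nearest to 0 on array 4, while HMOX2 and GPX3 were nearest to 0 on array 3. When any array was left out, no antioxidant gene passed the threshold in the fit on the remaining 3. GPX3 then had adjusted p from 0.0565 to 0.0839, GPX4 from 0.0635 to 0.114, HMOX2 from 0.0694 to 0.113 and GSTO1 from 0.0749 to 0.126, all by limma, and all 4 kept their direction.

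**Figure D4:**
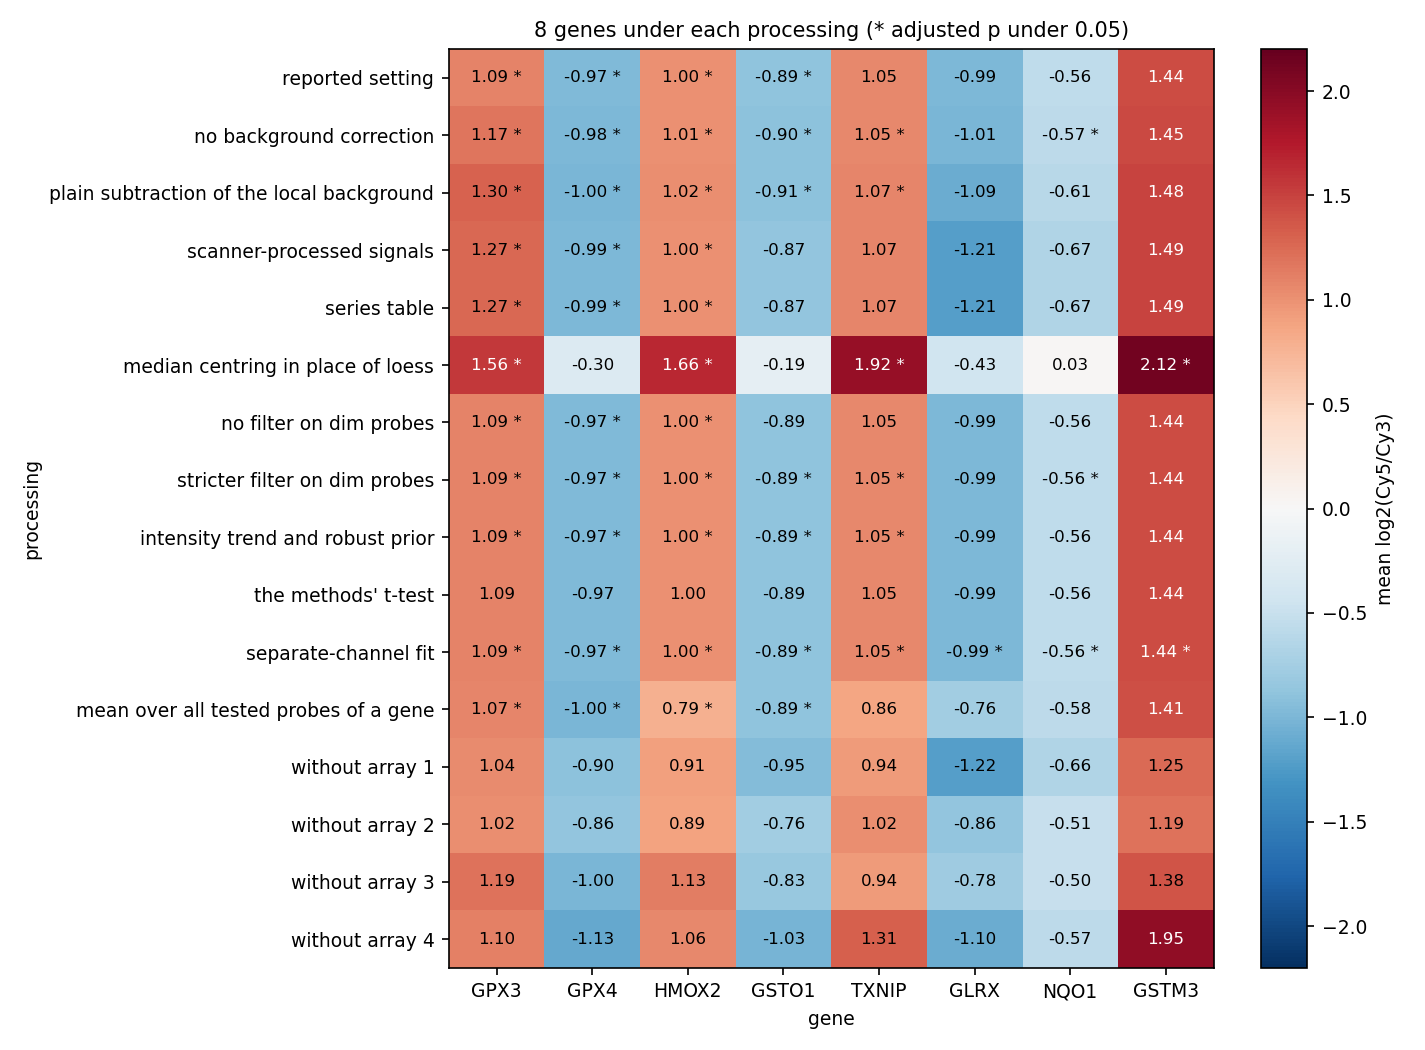
Mean log2(Cy5/Cy3) of 8 genes (columns) as reported and under each other processing (rows), coloured from blue (lower in Cy5) to red (higher in Cy5), with a star at an adjusted p under 0.05. GPX3 and HMOX2 were called in 10 of the 11 settings that kept all arrays, GPX4 in 9 and GSTO1 in 6. Among these settings, scanner-processed signals and the series table gave the same values. No gene was called without 1 array, and NQO1 changed sign under median centring, which moved the median of all probes to 0.24.

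The wider pathway was described by lists of 146 further genes, of which 99 were measured. Of these, 3 were higher, 1 was lower and 95 did not pass, or 4.04% called, near the background of 4.46%. Iron and haem handling held FTH1, the ferritin heavy chain that stores iron, at 0.70 ± 0.20 (adjusted p = 0.0353 by limma) with 0.60, 0.54, 1.00 and 0.66 on the arrays, and 3 of its 6 probes were called. Beside it MAFF, a small Maf protein that pairs with NRF2, was at 1.09 ± 0.43 (adjusted p = 0.0402 by limma), with 1.21, 1.23, 0.47 and 1.45.

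NADPH, the source of electrons for both glutathione and thioredoxin reductase, is supplied in part by PGD of the pentose phosphate pathway. PGD was at 0.50, 0.52, 0.67 and 0.93, a mean of 0.65 ± 0.20 (adjusted p = 0.0392 by limma), and all of its 5 probes had means between 0.35 and 0.65. The 13 measured genes of NADPH supply had a median of 0.18, with 8 above 0. Among 22 genes of glutathione use and turnover, SLC3A2, the heavy chain of the cystine importer, was lower at -1.67, -0.55, -1.97 and -1.05, a mean of -1.31 ± 0.64 (adjusted p = 0.0492 by limma).

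PTGES, a glutathione-dependent prostaglandin synthase, was called at its 2 dimmer probes, at 1.32 and 0.82, but not at its brightest, at 1.31 (adjusted p = 0.0638 by limma). SELENOT, a selenoprotein of the endoplasmic reticulum, was called at 1 dimmer probe, at -0.54 (adjusted p = 0.0335 by limma), but not at its brightest. No gene passed at its brightest probe among the 14 selenoproteins and their synthesis factors, the 16 thioredoxin-fold proteins and methionine sulfoxide reductases, or the 16 enzymes that make reactive oxygen. The smallest adjusted p in these 3 lists were 0.0557, 0.0636 and 0.0571 by limma.

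Some markers of other cell types also differed. In each list with over 1 called gene these shared a direction, while the means of all its genes lay on both sides of 0. Of 14 macrophage and leukocyte markers measured, CD5L was higher at 2.07 (adjusted p = 0.0134 by limma), 8 of the 14 were above 0 and the median was 0.29. The list's summed normalized intensity, in which the bright LYZ and CD3D (-1.30 and -1.01, not called) weigh most, was 11583 to 18304 in Cy5 and 18545 to 26576 in Cy3. Of 12 adipocyte markers, CFD and PNPLA2 were higher at 1.49 and 1.08 (adjusted p = 0.0146 and 0.0418 by limma), while 7 were below 0, with FABP4 at -1.19 (not called), and the median was -0.07. Of the 23 tested probes of the adipocyte markers, with several for the same gene, 3 were called, all higher, beside 3.32% of all probes called. By gene, CFD and PNPLA2 were the only ones of the 12 called, beside 4.46% of all named genes. The summed intensity of these markers was 16647 to 29374 in Cy5 and 14852 to 20065 in Cy3. The part of these cells in the higher levels of GPX3 and HMOX2 was not tested.

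Of 12 fibroblast and matrix markers, COL1A1 and COL3A1 were lower at -2.05 and -1.68 (adjusted p = 0.029 and 0.0368 by limma), while 7 were above 0, with DCN at 0.42 (not called), and the median was 0.02. Of the 51 tested probes of the matrix markers 14 were called, all lower, beside 3.32% of all probes called. These count several probes of the same gene. By gene, COL1A1 and COL3A1 were the only ones of the 12 called, beside 4.46% of all named genes. The summed intensity of these markers was 55679 to 97808 in Cy5 and 77642 to 138216 in Cy3. Endothelial and mural markers gave no call among 12, with sums of 8337 to 11159 and 7491 to 9913. The part of matrix cells in the lower levels of GPX4 and GSTO1 was likewise not tested.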

How the data were processed

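Each array held cRNA of 1 HER bull (n = 4) and 1 HF bull (n = 4). The deposited intensity values were the scanner's median signal and median local background of each spot, uncorrected per the file headers. The series table's deposited log10 values equalled the scanner's log ratios of background-subtracted, dye-normalized signals. Here, normexp (offset 50) removed background from the median signals, used because the files hold no means, loess within each array balanced the dyes with no weight on control spots, and 7 to 14 outlier spots per array were left out. Probes well above background in the same channel on all 4 arrays with values on at least 3 were tested against 0 (limma 3.58.1, lmFit and eBayes, two-sided, R 4.3.3, statmod 1.5.0, data.table version 1.17.8). The procedure was tested on simulated data. Symbols came from RefSeq accessions (23492 of 43653 probes). The array design and the gene annotation used different genome builds, so no coordinates are given. Every measured gene is named, with values on each array for genes called at any probe and for the 3 with the smallest p in each role list. For other lists the called genes were named. PTGES, SELENOT, the uncalled marker genes and the array values of GSTT1 and KEAP1 were chosen after their values were seen. The genes and lists were chosen with earlier results of these data known. Alternatives changed the background correction, normalization, filter, prior, test, probe summary and arrays.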

Additional observations from a re-analysis of the deposited data

Results flagged for a closer look

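On 5 of 94 probes examined, 1 array lay far from the other 3 by Dixon's test, which chance alone does for about 1 in 20 probes. GPX1 stood at 0.35 on array 4 beside 0.16 to 0.19 on the others. PRDX2 stood at 0.23 on array 1 at its brightest probe and at 0.40 at its second probe, where the other arrays were all below 0. TXN2 stood at 0.18 on array 1 at its dimmer probe, beside -0.28 and -0.23. A probe of KEAP1 other than the brightest stood at 0.36 on array 3, beside -0.26 and -0.25.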

How the results depend on the processing

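Of the 4 called genes, 4 were also called without background correction, by plain subtraction, with the stricter filter, with an intensity trend and robust prior, in the separate-channel fit and with each gene's probes averaged; under median centring GPX3 and HMOX2 were. Genes called higher numbered 2 as reported, 4 in the separate-channel fit, 22 under median centring and 0 by the methods' t-test. Calls by that t-test used the adjusted p threshold of 0.05 throughout. The study's methods named no adjustment and asked for a p no higher than 0.05 and at least a 1.3-fold change. Without adjustment the t-test left 10 genes with a p under 0.05. GPX3, HMOX2, GPX4 and GSTO1 were among these 10, each with a mean change of over 1.3-fold. Genes called lower numbered 2 as reported, 1 with scanner-processed signals, with the series table or with no filter (GSTO1 lost), 4 in the separate-channel fit, and 0 under median centring and by the methods' t-test. Called genes of the wider pathway numbered 4 as reported, 8 with the trend and robust prior, 14 in the separate-channel fit, 55 under median centring (54 of them higher) and 0 by the methods' t-test. Over all probes 9.85% were called in the separate-channel fit, 32.9% under median centring and 0 by the methods' t-test, beside 3.32% as reported. Without 1 array each of these counts was 0 (limma), with 10 to 14 antioxidant genes at an unadjusted p under 0.05, and over all probes 115, 38, 5 and 5 calls remained without arrays 1 to 4.

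Under median centring the median of the antioxidant genes was 0.52, and 93.4% of all called probes were higher, beside 59.3% as reported. There 20 antioxidant genes turned to above 0 and 1 to below 0, among them GCLC (-0.39), GCLM (0.16), GSR (0.23), NQO1 (0.03), PRDX1 (0.48), PRDX2 (0.40) and SOD2 (0.42). GCLC ran from 0.00 to 0.11 when 1 array was left out, with the sign turned without array 1. By plain subtraction this dim gene was at 0.53, and with scanner-processed signals or the series table at 0.73. It was not called in these settings (adjusted p = 0.363 and 0.124 by limma). The cause of these changes was not tested. TXNIP passed in 6 of 11 settings with all arrays, NQO1 in 3, GSTM3 in 2 and GLRX in 1. Among the 11, scanner-processed signals and the series table gave the same values. The reported test is itself paired, as each log2 ratio sets 1 bull against the other on its array, and no further replicate block could be fitted to 1 group of arrays.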

Other observations

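GSTM1 stood as an older symbol of 2 bovine gene records. The record LOC327709 had 5 probes, all bright enough to test, with means of -0.13, -0.27, -0.06, -0.66 and -0.74 in order of falling brightness. The last 2 were called (adjusted p = 0.0401 and 0.0339 by limma) and the brightest was not (adjusted p = 0.349). The record LOC783879 had 2 probes at 0.21 and 0.04, neither of them called.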
